A study of Homo sapiens with 4 samples.

Results

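The peaks described here are those that p63 chromatin immunoprecipitation (ChIP) gave in the large gene-free spans of the human chromosomes and on assembly contigs outside the chromosomes. Members were chosen by position alone. On each of chromosomes 1 to 22 and X, the widest interval without a RefSeq protein-coding gene was found in the GRCh38.p14 gene table, and every peak with its summit in that interval was kept. All peaks on alternate, random and unplaced contigs were added. Of the 4077 peaks of p63 immunoprecipitate (IP) replicate 1, 691 were members (16.9%), 608 in spans and 83 on 45 contigs. The other 3386 peaks of the same list served as the comparison.

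The cells were HSC-5, an established line of squamous cell carcinoma of the human skin, fixed with 1% formaldehyde for 12 min. The labels give 4 samples: 2 p63 IP samples and 2 input samples (chromatin sequenced without antibody). No genotype or treatment differs between them, and no label tells whether separate cultures were used for the replicates. IP replicate 1 was the list placed on the genome, so the comparisons below are between peaks of 1 library and describe that library; no spread between samples can be given, and intervals cover counting error only.

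p63, a relative of p53, is a transcription factor that specifies stratified epithelium, is abundant in basal keratinocytes and in many squamous carcinomas, and binds a palindromic DNA motif mostly at distal enhancers. Human centromeres are made of alpha satellite, a tandem repeat that is flanked by other satellites, and the assembly carries only models or parts of these arrays. Ribosomal DNA repeats lie on the short arms of the acrocentric chromosomes, and single copies are placed on contigs. Reads from the many near-identical genomic copies of such repeats pile up on the few copies in the assembly, and for that reason lists of regions to be left out of ChIP-seq analysis exist for human genome builds.

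The label of centromeric spans was checked against the bounding genes. The spans of chromosomes 1, 3, 5 to 12, 16 to 20 and X lie around the centromeres; the span of chromosome 3, for example, is bounded by EPHA3, an ephrin receptor gene, and PROS1, which encodes the anticoagulant protein S. The span of chromosome 2, between CTNNA2 and SUCLG1, and that of chromosome 4, between PCDH7 and ARAP2, were not centromeric, since both bounding genes of each lie on the short arm. They are called by the rule here. The first held 2 members with 18 tags in all, and the second held 0. The spans of chromosomes 13, 14, 15, 21 and 22 ran from the chromosome start to the first protein-coding gene. Those of 13, 14, 15 and 22 took in the acrocentric short arms and the centromeres. The span of chromosome 21 ended at 5012363, before its ribosomal units. It took in only part of the short arm and not the centromere, and it held 0 members. In all, the spans covered 203 Mb.

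No sequence of a member peak can be shown, because no genome sequence was used here. To show what the ribosomal repeat looks like, 2 microRNA hairpins that RefSeq (GRCh38.p14) places in the RNA45SN1 ribosomal unit on the plus strand of chromosome 21 are given, with the mature arms in capitals. The unit itself lies outside the members, but RNA45SN4 and RNA45SN5, copies of the same gene, carry 10 of the member peaks within 10 kb.
MIR6724-4: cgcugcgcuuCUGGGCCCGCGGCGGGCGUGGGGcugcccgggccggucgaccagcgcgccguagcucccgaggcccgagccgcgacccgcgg
MIR10396B: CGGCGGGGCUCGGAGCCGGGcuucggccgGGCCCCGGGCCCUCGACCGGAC
MIR6724-4 (chr21:8432530-8432621) is 92 bases long with a G+C content of 83.7%, and it starts 692 bases before the 45S gene, between 2 peaks and within neither. MIR10396B (chr21:8436324-8436374) is 51 bases long with a G+C content of 86.3%, starts 3102 bases after the 45S start, and ends 572 bases before the peak on the 18S gene.

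Members were wider and held more tags than the other peaks of the list, at a lower fold enrichment. A tag is 1 aligned read, kept once per position and strand, and the fold is the peak caller's ratio of IP over local control. Members held a median of 21 tags (95% order-statistic interval 18 to 25), against 10 (10 to 10) in other peaks. Their median width was 329 bp (310 to 348), against 242 bp (241 to 243). Their median fold was 7.72 (7.36 to 8.18), against 14.4 (14.1 to 14.7) in other peaks. The intervals treat peaks as independent, which clustered members are not, so they are too narrow and serve as a description. The median score, which is the negative log10 of the caller's p-value multiplied by 10, was 60.1 (59.4 to 61.1) in members and 62.1 (61.4 to 62.8) in other peaks.

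Although they were 16.9% of the peaks, members held 91091 of the 154960 tags in peaks, or 58.8%, and the other peaks held 63869, or 41.2%. Against all 12687447 tags kept in the library, members held 0.718% and other peaks 0.503%. In members 148 of 691 peaks were over 100 tags (21.4%, Wilson 95% interval 18.5 to 24.6), against 46 of 3386 other peaks (1.36%, 1.02 to 1.81); over the whole list the share was 4.76%. Peaks over 1 kb wide numbered 96 among members (13.9%, 11.5 to 16.7), against 44 among other peaks (1.30%, 0.969 to 1.74), with 3.43% over the list. A fold of 10 or more was reached by 224 members (32.4%, 29.0 to 36.0), against 3050 other peaks (90.1%, 89.0 to 91.0), with 80.3% over the list. A score of 100 or more was reached by nearly the same share of both groups, 101 members (14.6%, 12.2 to 17.4) and 538 other peaks (15.9%, 14.7 to 17.2), with 15.7% over the list.

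At the low end the members resembled the other peaks, and the difference in fold grew with the tags up to 100. Among peaks of 8 tags, the smallest count in the list, the median fold was 13.6 in 60 members and 13 in 990 other peaks. At 9 to 12 tags it was 11.7 in 160 members, against 13.6 in 1419 other peaks. At 13 to 25 tags it was 8.86 in 154 members, against 18.2 in 758 other peaks. At 26 to 100 tags it was 5.82 in 169 members, against 27.7 in 173 other peaks. Thus fold went down with tags in members and up in other peaks over these 4 classes, as the plot of fold against tags shows. Above 100 tags both groups were low, at 4.62 in the 148 members and 3.81 in the 46 other peaks. As a description across peaks of 1 library, which share its depth and control, Spearman's rho between tags and fold was −0.82 over the 691 members and 0.256 over the 3386 other peaks.

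**Figure D1:**
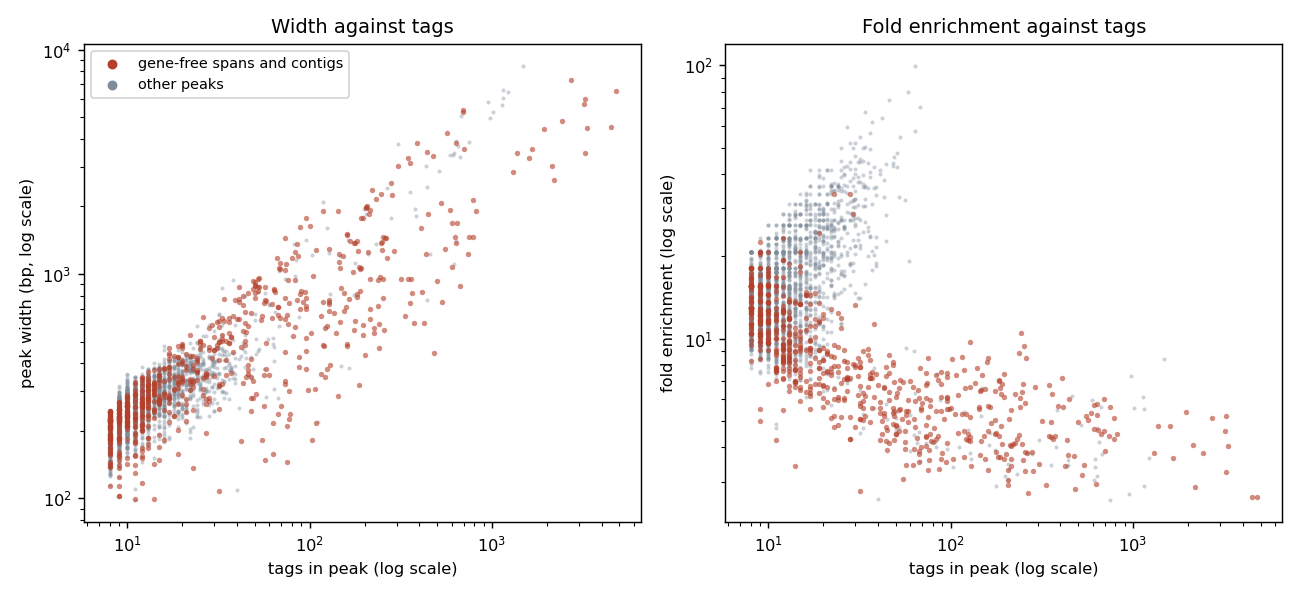
Each point is a peak of p63 IP replicate 1, with its tags on the x axis and its width in bp (left) or fold enrichment (right) on the y axis, all on log scales; red points are the 691 members and grey points the 3386 other peaks. Wide peaks with many tags and folds under about 10 are mostly red, and grey peaks of 26 to 100 tags sit higher, at a median fold of 27.7 against 5.82 for red ones.

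Widths ran together with tags in both groups, with rho of 0.853 in members and 0.73 in other peaks. The median width of members was 210 bp at 8 tags, 232 bp at 9 to 12, 313 bp at 13 to 25, 545 bp at 26 to 100 and 1212 bp above 100 tags. In other peaks the same classes had median widths of 219, 244, 312, 392 and 2030 bp. Tags were also packed more closely in members, at a median of 6.08 tags per 100 bp, against 4.15 in other peaks.

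The 148 members over 100 tags held 49.9% of all tags in peaks. Their folds lay between 2.64 and 10.49, and 58 of them had a score under 100. The 46 other peaks over 100 tags had folds between 2.56 and 8.44 and lay on 5 chromosomes. Of these, 23 with 13983 tags lay on chromosome Y, which the rule does not search: 22 of them within 98.3 kb (chrY:56673216-56771505) and 1 of 111 tags at 11721914. The widest gene-free span of chromosome Y, 9530677 to 12701230, would take in the peak of 111 tags but not the 22. The ribosomal units of chromosome 21 (chr21:8209573-8453725) held 13 with 4821 tags. The start of chromosome 1 (chr1:628954-634930), where RefSeq lists mitochondrial pseudogenes such as MTND1P23, held 5 with 2301 tags. A cluster of REXO1L pseudogenes on chromosome 8 (chr8:85650569-85749012) held 4 with 1222 tags, and 1 lay on chromosome 2 (chr2:32916226-32916607) with 164 tags.

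The chromosomes differed more in tags than in the number of members. Members lay on 21 of the 23 chromosomes searched, with 0 on chromosomes 4 and 21. Chromosomes 5 (140), 19 (85) and 1 (81) together held 306 of the 608 span peaks, or 50.3%. Chromosomes 1 (31132 tags) and 16 (14960 tags) held 50.6% of the tags of all members, chromosome 16 with 21 peaks. As background, the centromeres of chromosomes 1, 5 and 19 share a family of closely related alpha satellite arrays, and chromosomes 1, 9 and 16 carry large blocks of pericentromeric heterochromatin built of other satellites. These chromosomes were set together after their values were seen.

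**Figure D2:**
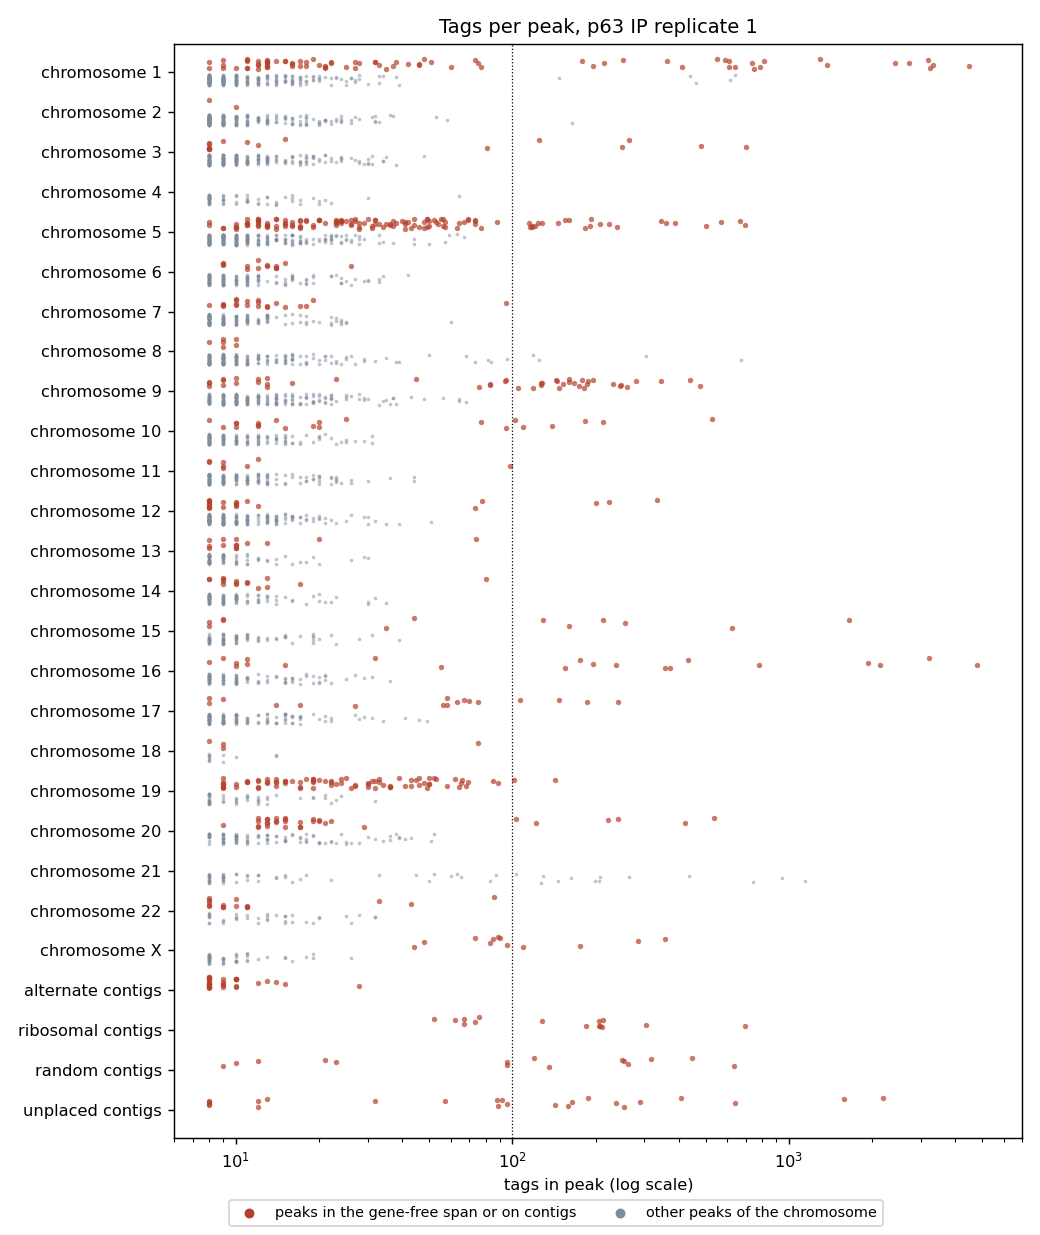
Tags in each peak on a log x axis, with 1 row per chromosome and contig class; red points are members, grey points below them are the other peaks of the same chromosome, and vertical scatter within a row has no meaning. The dotted line marks 100 tags: red points pass it on 12 chromosomes and on every contig class but the alternate contigs, and the highest is at 4788 tags on chromosome 16.

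Peak density in the spans was 2.99 per Mb over all 23 chromosomes, against 1.19 per Mb outside them, and it was higher inside on 16 chromosomes. It stood out on chromosome 5, with 29.8 peaks per Mb in the span against 1.69 elsewhere, and on chromosome 19, with 16.7 against 0.934. Chromosomes X, 10 and 18 followed at 6.04, 4.23 and 4.12 times the density outside. These ratios rested on 12, 22 and 4 members (exact Poisson intervals 6.2 to 21, 13.8 to 33.3 and 1.09 to 10.2). The densities outside were 0.365, 1.18 and 0.162 per Mb. Chromosome 8 was nearly equal, at 1.61 against 1.6. On chromosomes 2, 4, 13, 14, 15, 21 and 22 the spans were less dense than the rest, with 0 members on chromosomes 4 and 21. Much of the acrocentric short arms has no assembled sequence, so their spans are longer than the sequence in which a peak could be called. Span lengths were not corrected for missing sequence on any chromosome, so densities in spans can be understated elsewhere too. Long stretches without a member lay at 125183977 to 143184583 on chromosome 1, 45348263 to 60558614 on 9 and 38280491 to 46385843 on 16. How much of these stretches is assembled was not tested.

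**Figure D3:**
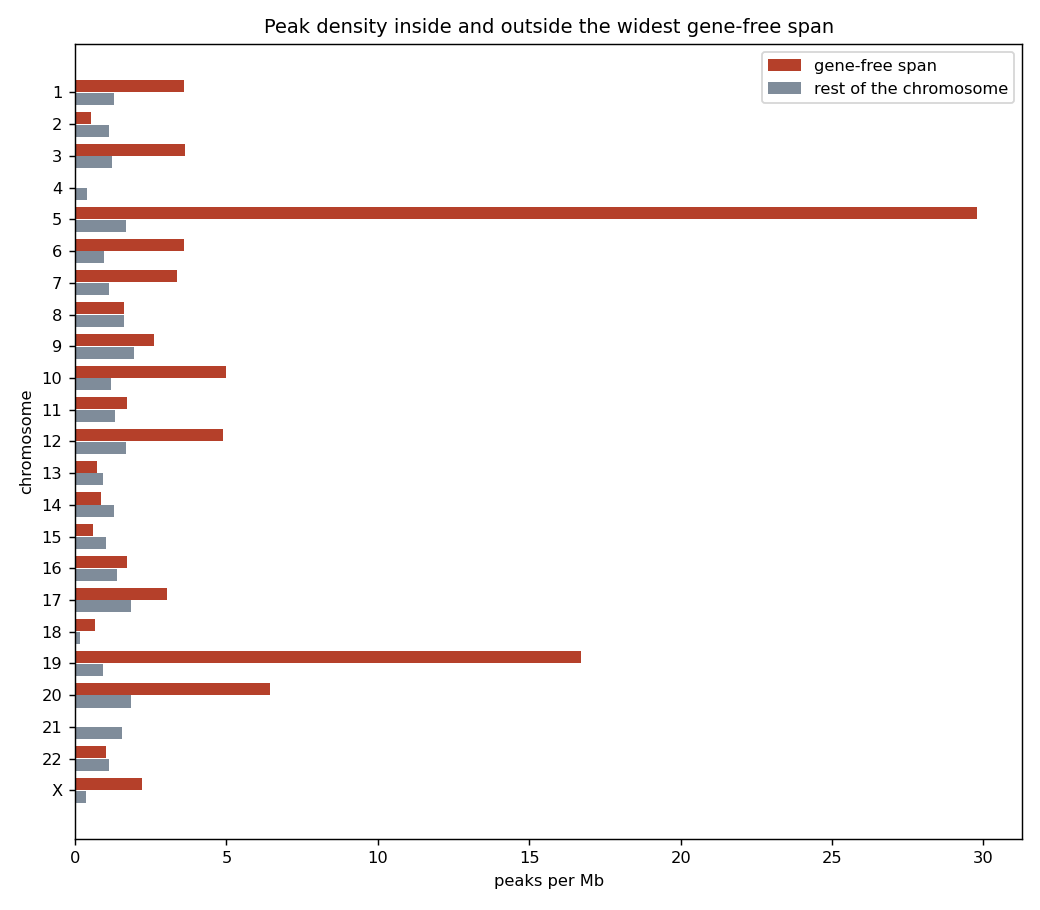
Peaks per Mb in the widest gene-free span (red, upper bar) and in the rest of the chromosome (grey, lower bar) for chromosomes 1 to 22 and X. The spans of chromosomes 5 and 19 reach 29.8 and 16.7 peaks per Mb, and no bar is seen for members on chromosomes 4 and 21.

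The share of each chromosome's peak tags held by its members was 92.1% on chromosome 16, 84.7% on 1, 81.9% on 19, 76.1% on 15, 73.2% on X, 71.0% on 5, 64.0% on 9, 54.8% on 20 and 48.7% on 10, and it was lowest of the chromosomes with a member on 2, at 0.534%. On 19 of the 21 chromosomes with members, the median fold of members was below that of the other peaks of the same chromosome. Their median width was above it on 16 of the 21. Thus the direction of the difference in fold was shared by most chromosomes taken 1 at a time, but its size varied. On chromosome 16 the medians were 4.97 against 15.6. On chromosome 2, with 2 members, they were 14.9 against 15.6, and on chromosome 18, with 4, they were 13 against 15.6. The reverse held on chromosomes 8 (14 against 12.8) and 11 (15 against 14.9).

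The chromosomes are described next by whether they had a member over 100 tags. This division was made after the values were seen and itself sets the direction of what follows in tags and in the values that run with tags. On 9 chromosomes (2, 6, 7, 8, 11, 13, 14, 18 and 22) none of the 101 members passed 100 tags. The medians of these members were 10 tags, 249 bp in width and 11.6 in fold, and 62 of them reached a fold of 10. On the other 12 chromosomes the 507 members had medians of 28 tags, 362 bp and 7.10 in fold. By chromosome, the medians ran between 9 and 12.5 tags in the first set and between 10 and 175 tags in the second. The member with the most tags on a chromosome of the first set was, for example, chr11:53986950-53987254 with 98 tags at a fold of 5.54 on chromosome 11, and chr2:83518851-83519133 with 10 tags at a fold of 11.56 on chromosome 2.

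The highest members of further chromosomes, taken from both sets, held between 10 and 700 tags. Chromosome 20 had chr20:28495298-28496047 with 535 tags in 750 bp, chromosome 10 had chr10:42080874-42082950 with 528 tags in 2077 bp, and chromosome 12, in the span between the glucosyltransferase genes ALG10 and ALG10B, had chr12:37239384-37240032 with 334 tags in 649 bp. Their folds were low, at 3.44, 3.17 and 2.91. Chromosome 3 had chr3:93710124-93713713 with 700 tags in 3590 bp at a fold of 3.87. Chromosome 17 had chr17:26603638-26604605 with 242 tags in 968 bp at a fold of 10.49, the highest fold of any member over 100 tags. The acrocentric chromosomes 13, 14 and 22 each had a single member over 1 kb as their highest, with 74, 80 and 86 tags at folds of 6.91, 4.19 and 3.33; the next of their members were narrower than 1 kb. Chromosome 18 reached 75 tags and chromosome 7 reached 95, while chromosomes 6 and 8 reached 26 and 10.

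On chromosome 1 nearly all member tags came from 2 places. The block chr1:143184583-143275985 held 23 peaks over 91.4 kb with 24887 tags, which is 27.3% of the tags of all members and 16.1% of all tags in peaks. Its peaks covered 57.1% of it, held between 60 and 3326 tags each, and had folds between 3.8 and 7.0. The gaps between neighbouring peaks ran between 4 and 8911 bp, with a median of 962 bp. A second block, chr1:125166897-125183977, held 4 peaks with 5143 tags. Within it, chr1:125178754-125183257 alone held 4482 tags (exact Poisson interval 4352 to 4615) at a fold of 2.64. The other 54 members of chromosome 1 were of another size, with a median of 16 tags and at most 51, a median width of 258 bp and a median fold of 8.93.

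**Figure D4:**
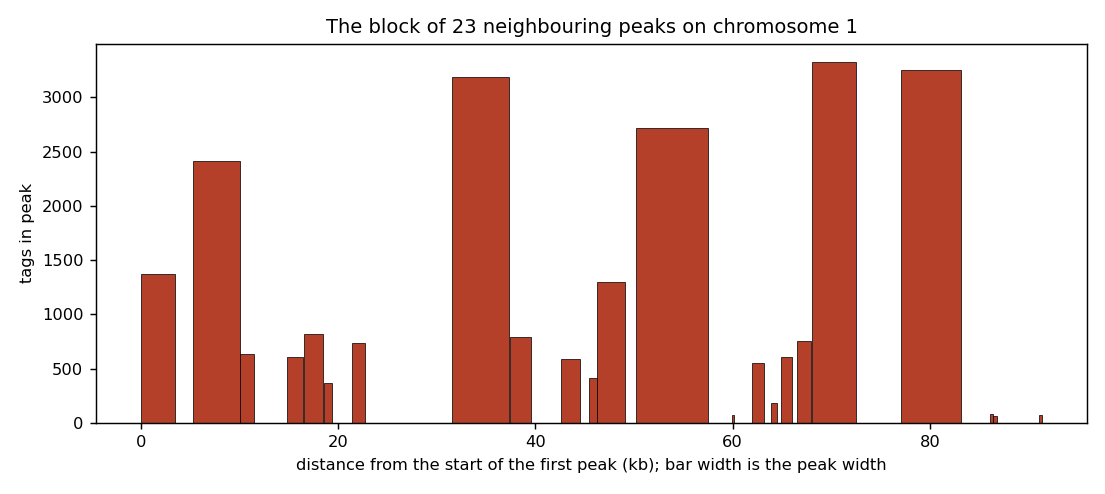
Tags in each of the 23 peaks of the chromosome 1 block (y axis, linear from 0) against distance in kb from the start of the first peak; each bar is as wide as its peak. The 5 tallest peaks, of 2412 to 3326 tags, stand among lower and narrower ones, with short gaps between most neighbours.

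The span of chromosome 16, bounded by LOC124903767 and SHCBP1, had the single peak with the most tags. The peak chr16:46385843-46392394 held 4788 tags (4653 to 4926) over 6552 bp, at a fold of 2.64 and a score of 66.16, which is close to the median score of members. Its neighbour chr16:46398193-46401667 held 3224 tags (3114 to 3337) over 3475 bp, at a fold of 3.26 and a score of 1800.57, the highest of any member. Thus of 2 peaks within 15.8 kb, the one with more tags and more width had by far the lower score, at a slightly lower fold. A further block on this chromosome, chr16:34573912-34625196, held 7 peaks with 5875 tags.

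Chromosomes 5 and 19 had many peaks of moderate size. On chromosome 5 the 140 members had medians of 30.5 tags, 411 bp and 6.88 in fold; 23 of them passed 100 tags. Most of the tags lay in the block chr5:48847429-50142756, with 79 peaks and 8056 tags over 1295 kb, of which peaks covered 4.27%. The member with most tags there was chr5:50135149-50140501, at 692 tags over 5353 bp. On chromosome 19, in the span between the zinc finger gene ZNF254 and UQCRFS1, which encodes the Rieske subunit of respiratory complex III, the 85 members had medians of 24 tags, 346 bp and 7.43 in fold. Only 2 of them passed 100 tags, and the highest, chr19:24852201-24854116, held 143. Members made up 63% of the peaks of chromosome 19.

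Chromosomes 9, 15 and X had fewer members, at higher median tags. The 47 members of chromosome 9 had a median of 127 tags and of 837 bp, and 33 of them lay in the block chr9:60558614-60687512 with 5808 tags and folds at a median of 4.51. The 12 members of chromosome 15 had a median of 86.5 tags, with an interval of 9 to 255. Of these, 8 lay in the block chr15:19681019-19789905 with 35 to 1653 tags each, and the rest were single peaks of 8 or 9 tags. The peak chr15:19776866-19780469 held 1653 of the 3149 tags of the 12 members. The 12 members of chromosome X had a median of 89.5 tags and of 800 bp, and 0 of them reached a fold of 10.

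Taking neighbours within 100 kb as 1 block, the 691 members formed 215 blocks. The 10 blocks with the most tags held 75.3% of the members' tags with 174 peaks. At the other end, 126 blocks were single peaks with a median of 10 tags and a median fold of 11.9. Packing within a peak had a ceiling, because 1 tag at most was kept per position and strand, which allows 200 tags per 100 bp. The peak with the closest packing was chr3:93470356-93470800, with 483 tags in 445 bp, or 54.3% of that ceiling. For chr1:125178754-125183257 it was 49.8%. How far the limit of 1 tag per position lowered these tag counts was not tested.

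The contigs were taken in 4 classes: alternate, random, unplaced and ribosomal. The 29 peaks on 17 alternate contigs, which carry other haplotypes of gene-bearing regions, had medians of 9 tags, 230 bp and 15.6 in fold. None of them passed 100 tags (0 of 29, which allows a share of up to 11.7%, Wilson), and 27 reached a fold of 10. In these values they were near the other peaks of the list. The 15 peaks on 7 random contigs, which belong to a known chromosome at an unknown place, had medians of 120 tags, 667 bp and 6.81 in fold. Of these, 8 were on the single contig KI270709v1; the other 7 held 9 to 318 tags, with medians of 21 tags, 304 bp and 9.03 in fold. The 24 peaks on 19 unplaced contigs had medians of 94 tags, 608 bp and 6.75 in fold, close to those of all the random contigs. The 15 peaks on 2 ribosomal contigs, counted in neither of these classes, had a median of 184 tags, 1289 bp and a fold of 3.79, and 0 of them reached a fold of 10.

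Of the 45 contigs, 32 had 1 peak and 5 had 3 or more. The unplaced contig KI270438v1 held the most tags, 1586 and 2194 in 2 peaks at folds of 4.80 and 2.87. The random contig KI270709v1 of chromosome 1 held 8 peaks between 3207 and 17666, with 96 to 632 tags each and 2197 in all. Its folds ran between 3.83 and 7.48, and peaks covered 80.1% of the stretch. The alternate contig KI270853v1 of chromosome 16 also held 8 peaks, but with 9 to 14 tags each at folds between 12.7 and 23.4. The alternate contig KI270857v1 of chromosome 17 held 4 peaks of 8 to 10 tags. On 6 unplaced contigs, KI270303v1, KI270304v1, KI270310v1, KI270383v1, KI270391v1 and KI270411v1, a peak started within the first 100 bp of the contig, so how far the signal would run past that edge is not known.

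On the ribosomal contigs peaks lay both on and beside the ribosomal RNA genes. The 45S gene is transcribed by RNA polymerase I into the precursor of the 18S, 5.8S and 28S ribosomal RNAs. RNA18SN4 on the random contig KI270733v1 of chromosome 22 was covered whole by a peak of 205 tags (178 to 235) at 125868 to 127828, which began 63 bp before the gene and ended 29 bp after it. RNA18SN5 on the unplaced contig GL000220v1 had a peak of 205 tags at 109026 to 111020. The pseudogene copies on the same contigs, RNA18SP4 and RNA18SP3, had 213 and 207 tags. The 4 copies thus held nearly the same tags, and their folds ran between 2.91 and 3.43. In chromosome 21, outside the members, RNA18SN1, RNA18SN2 and RNA18SN3 had 205, 207 and 199 tags, and RNA18SP5 had 103. These genes are near-identical copies, so the number of tags per copy is uncertain: reads could have been shared out among the copies, and the sources used here do not say how such reads were placed.

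**Figure D5:**
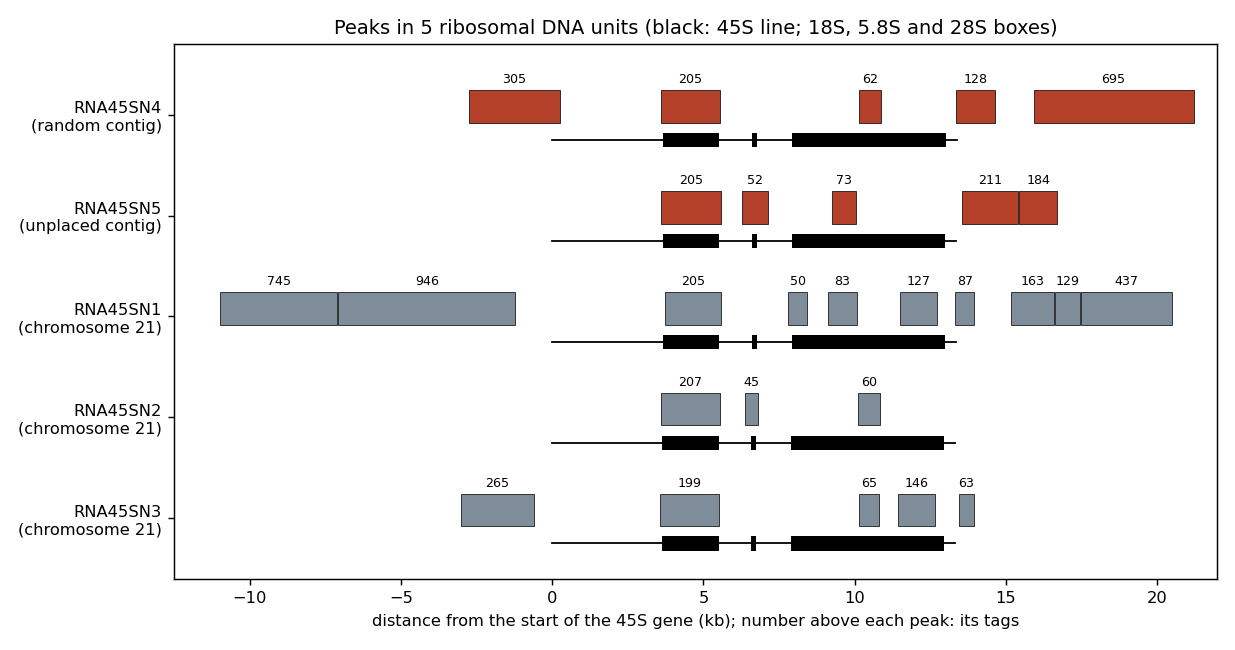
Peaks of p63 IP replicate 1 in 5 ribosomal units, drawn by distance in kb from the start of the 45S gene; red boxes are members on contigs, grey boxes are peaks of chromosome 21 outside the members, and the number above a box is its tags. In all 5 units a peak of 199 to 207 tags lies on the 18S gene, covering it whole in 4 and 96.3% of it in RNA45SN1, while peaks before and after the 45S gene differ between units.

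Some further peaks began at like places in 3 of the 5 units. A peak of 62 tags began 10154 bp after the 45S start of RNA45SN4, within the 28S gene, and peaks of 65 and 60 tags began 10140 and 10120 bp after that of RNA45SN3 and RNA45SN2 on chromosome 21. In RNA45SN5 and RNA45SN1 the nearest peaks lay apart from this place, from 9264 to 10043 bp with 73 tags and from 9105 to 10081 bp with 83 tags. The contig of RNA45SN4 also had a peak of 305 tags (119506 to 122539) over the 45S start and a peak of 695 tags (138193 to 143482) after the gene. The contig of RNA45SN5 had peaks of 211 and 184 tags after the gene and none called over its start. Peaks lying whole within the 45S gene held 267 tags in RNA45SN4 and 330 in RNA45SN5, while the remaining peaks assigned to these units held 1128 and 395 tags. Among gene groups, 12 of 40 ribosomal RNA genes in the spans or on ribosomal contigs had a member within 10 kb. These 12 were on the 2 ribosomal contigs, which were classed by carrying such genes, so the background in the spans given below does not apply to them. Of 20 small nuclear RNA genes and of 20 genes of the DUX4 and FRG1 family in the spans, 0 had a member within 10 kb. Of all 601 RefSeq genes within the spans, 14 had one (2.33%), so 0 of 20 is near this background. A list of families duplicated near centromeres also took in every LINC symbol, and 44 of its genes were counted here. Of these, 2 had a member within 10 kb, LINC01809 on chromosome 2 (10 tags) and LINC02987 on chromosome 19 (9 tags). LINC is a general prefix for long noncoding RNA genes, so neither stands for a duplicated family.

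Some members had the profile of the other peaks. Between the lower and upper quartiles of the other peaks, in both width and fold, lay 76 members (11.0%), against 1033 other peaks (30.5%). The highest fold of any member was 33.74, reached by chr10_KI270825v1_alt:137265-137535 with 28 tags and by chr22_KI270734v1_random:154835-155229 with 23 tags. In the spans it was 28.58, at chr20:25719173-25719593 with 29 tags (19.4 to 41.6), inside the long noncoding RNA gene LOC107985400. Next came chr7:58826814-58827076 with 19 tags at a fold of 24.36. All 4 were under 500 bp wide and had scores between 113.58 and 284.36. Inside a RefSeq gene of any type lay 5 of the 608 span members (0.822%), against 2088 of the 3357 other peaks on chromosomes 1 to 22 and X (62.2%). The rule leaves few genes there: RefSeq genes cover 3.20% of the bases of the spans. The other 4 lay in H2BP2, FAM230C, LOC105374834 and, for 1 peak, LINC02987 together with LOC105372347. Each had 9 or 10 tags, a width of 199 to 283 bp and a fold of 11.56 to 16.76.

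At the edge of the rule, the nearest member inside was chr9:42965207-42965435, 9.77 kb from LOC112268044, with 8 tags at a fold of 11.94. The nearest peak outside was chr5:50423320-50423835, 27.4 kb past the span edge at EMB, with 63 tags over 516 bp at a fold of 8.98.

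IP replicate 2 was not placed on genes, because its numbering appears to differ from that of replicate 1, so its members cannot be listed. Its list gives 2934 peaks with 21296 tags, of 868393 kept tags, against 12687447 kept in replicate 1. In its own numbering the peaks with the most tags were chr1:121483992-121485499 with 776 tags and chr7:61967772-61970629 with 538, followed by chr10:42384220-42385749 with 291. Of its 10 peaks with the most tags, 5 were on chromosome 10, 2 on chromosome 2 and 1 each on chromosomes 1, 7 and 19. In replicate 1 the 10 were on chromosomes 1 and 16 and on KI270438v1. The folds of these 10 peaks ran between 6.3 and 36.97 in replicate 2, against 2.64 to 5.22 in replicate 1. The 10 peaks held 143 to 776 tags each in replicate 2, against 2142 to 4788 in replicate 1. Kept control tags also differed, at 13175270 for replicate 2 and 28327222 for replicate 1. Whether the folds of the 10 peaks were low for the list of replicate 2 was not tested. Peaks over 1 kb wide held 17.2% of the peak tags in replicate 2 (23 peaks), against 55.4% in replicate 1 (140 peaks). The share of peaks within 5 kb of another was 12.4% (11.3 to 13.7) in replicate 2 and 9.93% (9.05 to 10.9) in replicate 1. The 2 libraries differ in depth, and the lists appear to differ in genome numbering, with no contigs in that of replicate 2. The part of either in these differences was not tested.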

How the data were processed

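p63 ChIP-seq libraries of HSC-5 cells were sequenced by the authors, and the peak lists of the 2 IP samples were used; the input files were not used here. MACS 1.4.2 made each list from 1 IP and 1 control at a p cut-off of 1e-05 and kept 1 tag per position, per the file headers. The tag size was 76 bp, and 12687447 of 22139487 tags were kept in replicate 1 and 868393 of 4089280 in replicate 2. The deposited tag counts are whole counts per peak, not normalised. The deposited score is the negative log10 of the caller's p-value multiplied by 10. Fold enrichment, as deposited, is the caller's ratio of IP over local control. The deposited false discovery rate, in percent, was not used for a comparison. Bowtie, Trimmomatic and FastQC and the build hg19 are named in the submitters' processing notes, without roles.

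Replicate 1 holds contigs named as in GRCh38 and was read in that build; replicate 2 has none and was not placed. How reads with several matches were placed is not given in the sources used here. The 3 sheets of replicate 1 hold the same peaks, and 1 was used.

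Summit position was start plus summit offset minus 1. Spans came from RefSeq GRCh38.p14 protein-coding genes. Tags per 100 bp are tags over width. The contigs of RNA45SN4 and RNA45SN5 were assigned by hand, and the edges of the 18S genes then fell within 100 bp of peak edges. Intervals are Wilson (shares), exact Poisson (tags) and order-statistic (medians), at 95%. No test was run: peaks of 1 library are not replicates. Placement of peaks in the spans and the order-statistic interval of the median were tested on simulated data with independent values. The Wilson and Poisson intervals, the spans themselves and clustered peaks were not tested in this way. Members, gene lists and thresholds (100 tags, 1 kb, fold of 10, score of 100, 100 kb blocks, 10 kb to genes) were chosen with earlier results of these data known. Named peaks are the 10 with the most tags, the 5 widest, the 5 of highest fold, the 5 of highest score, the highest in tags of each chromosome and those of contigs with 3 or more peaks; the peak with the closest packing, the single-peak and 2-peak contigs, peaks inside genes and blocks were named after their values were seen. Python 3.11.15, pandas 2.3.3, NumPy 2.4.6, SciPy 1.17.1 and matplotlib 3.10.9 were used.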

Additional observations from a re-analysis of the deposited data

How the results depend on the processing

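Membership was recomputed with other span rules, filters and joins. With scores of 100 or more, 101 members remained with 73.2% of the peak tags so filtered, a median of 260 tags, 1072 bp and a fold of 5.03; 90 passed 100 tags and 53 passed 1 kb. With folds of 10 or more, 224 members had 7% of tags, a median of 10 tags, 233 bp and a fold of 13; 1 passed 100 tags and 0 passed 1 kb. The share of tags, 58.8% as reported, was 54.6% with spans bounded by RefSeq genes of all types, 56.3% with spans between 2 genes only, 55.2% without contigs, 50.3% without peaks over 3 kb and 50.7% without chromosome 1. Joining peaks under 1 kb apart gave medians of 17 tags and a fold of 8.32, with 91 peaks over 100 tags. Adding the span of chromosome Y, chosen after seeing the data, gave 696 members and 58.9% of tags. That span does not reach the 22 peaks over 100 tags at chrY:56673216-56771505, so their tags stayed outside the members. Block gaps of 10 and 1000 kb, also chosen after seeing the data, put 67.3% and 79.3% of member tags in 10 blocks. Without replicate 1, that is in replicate 2 alone, the shares of tags in peaks over 1 kb, of peaks within 5 kb of another and of tags in the 10 peaks with the most tags were 17.2%, 12.4% and 14%; at scores of 100 or more in replicate 1 they were 71.7%, 14.1% and 34.3%. Causes were not tested. No paired analysis was possible because no result comes from a test across samples. At the median of 10 tags in other peaks, and 21 in members, counting error limits single peaks.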
